A study of Mus musculus with 6 samples.

Results

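The Notch receptors Notch1, Notch2, Notch3 and Notch4, the canonical ligands Jag1, Jag2, Dll1 and Dll4, and the target genes Hes1 and Hey1 were measured by bulk RNA sequencing in sorted mouse corneal keratocytes, the stromal cells that make and maintain the transparent collagen matrix of the cornea. The 10 genes were chosen by name, with earlier results of these data known, and each was found by its symbol among the 17606 genes of the table. The Ptch1-ablated group held 3 samples from Prrx1-CreERT;Ptch1 f/f mice, in which tamoxifen activates a Cre recombinase driven by the mesenchymal gene Prrx1 and removes floxed Ptch1, the receptor that restrains Hedgehog signaling. The control group held 3 samples from age-matched mice, whose genotype is not given further in the sources used here. Mice of both groups were 10 weeks old and had received 3 doses of tamoxifen, and the interval is given as 1 month. Cells were sorted by FACS, with no sort marker given. The Prrx1-CreERT driver is not restricted to keratocytes, and per the study it also recombines in corneal endothelial cells and in other mesenchymal cells of the eye. Nothing in the labels ties a sample to a number of animals, so the p-values measure the spread between these samples.

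Notch is a receptor that is cut when a ligand on a neighbouring cell binds and pulls on it. Enzymes of the ADAM family and then gamma-secretase release its intracellular part, which enters the nucleus, joins the DNA-binding protein RBPJ and switches on genes of the HES and HEY families of repressors. The pathway is best known for deciding fates between neighbouring cells, and in blood vessels Dll4, Jag1, Notch1, Notch3, Hey1 and Heyl take part in sprouting, arterial identity and the coating of vessels by mural cells (pericytes and smooth muscle).

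Total counts per library were between 20258439 and 24788063, and a count of 0 allows up to 3 counts, or 0.121 to 0.148 CPM (counts scaled to a library of 1000000), a limit that covers counting error only. Of all genes, 13888 passed the filter on low counts and were tested, among them all 10 Notch genes. As a check of the labels, Ptch1 itself had 104 to 369 counts in control and 4348 to 6230 in ablated libraries (log2 fold change 4.47 ± 0.35 (SE), edgeR adjusted p = 6.83e-06). This is the total over the gene and does not resolve the deleted exons. The Hedgehog target gene Gli1 (7.15 ± 0.54) and the Hedgehog-binding protein gene Hhip (9.97 ± 0.27) were also higher in every ablated library. The first principal component of the libraries (45.1% of the variance) separated the groups, whereas on the second (22.2%) control replicate 1 and ablated replicate 2 lay far from the remaining 4 libraries, and results are also given without this pair. Summed levels of the keratocyte markers were high in both groups, between 102930 and 118710 TPM (transcripts scaled for length to a common sum) in control and between 79924 and 95958 TPM in ablated libraries, and Ptgds was the marker of that list that did not pass the filter.

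The sequences just upstream of the receptor and ligand genes that changed are shown because these genes changed in the comparison. The 100 bases before the annotated transcription start are printed for Jag1 and Dll4, the ligands that rose, and for Notch1 and Notch3, the receptors that rose. They are RefSeq sequence of assembly GRCm38.p6, written from 5′ to 3′ on the strand of the gene. Capitals mark the GC box GGGCGG on either strand, the core of the site bound by Sp1-family factors. Jag1 is at chr2:137116521-137116620 on the minus strand, Dll4 at chr2:119325684-119325783 on the plus strand, Notch1 at chr2:26503823-26503922 on the minus strand and Notch3 at chr17:32166891-32166990 on the minus strand.
Jag1: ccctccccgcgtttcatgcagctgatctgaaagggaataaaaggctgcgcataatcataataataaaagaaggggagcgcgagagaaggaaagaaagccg
Dll4: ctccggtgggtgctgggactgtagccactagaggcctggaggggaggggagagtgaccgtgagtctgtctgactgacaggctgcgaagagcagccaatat
Notch1: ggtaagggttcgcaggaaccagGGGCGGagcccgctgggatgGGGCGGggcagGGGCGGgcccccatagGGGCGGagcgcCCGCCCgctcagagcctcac
Notch3: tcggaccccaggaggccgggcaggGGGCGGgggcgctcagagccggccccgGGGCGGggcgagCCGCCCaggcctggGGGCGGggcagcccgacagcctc
Notch1 held 5 GC boxes and Notch3 held 4 in these 100 bases, while the stretches of Jag1 and Dll4 held none.

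A promoter entry was found for 8 of the 10 genes, with 9 windows because Dll1 has more than 1 start, and there was no entry for Hes1 and Hey1. In the 250 bases before the start, the GC box was present in 5 of the 9 windows (Dll4, Jag2, Notch1, Notch2 and Notch3), against 32.7% of the 32851 windows of all genes. The RBPJ core TGGGAA was in 0 of the 9 windows, against 21.6% of all windows. The GLI motif GACCACCCA, bound by the transcription factors of the Hedgehog pathway, was in 0 of 9 against 0.225%, and the E-box CACGTG, a palindrome, in 0 of 9 against 6.02%. Each motif was searched on both strands without any mismatch, and no motif contains another. The GC content of these 250 bases was 57.2% for Jag1, 65.6% for Dll4, 66.0% for Notch1 and 68.8% for Notch3, with a median of 52.4% over all windows. A match or its absence describes these letters in this window and says nothing about binding.

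Of the 10 genes, 5 were higher in the Ptch1-ablated samples by edgeR's test: the receptors Notch1 and Notch3, the ligands Jag1 and Dll4, and the target gene Hey1. Jag1 had the lowest p and rose 3.86-fold, and Jag1, Dll4 and Hey1 also exceeded a 2-fold change. In edgeR's quasi-likelihood test of the groups, a gene was taken to have passed when its adjusted p did not exceed 0.05, and 4.68% of all tested genes passed in this direction. With the added minimum of 2-fold, 3 of 10 genes passed, against 3.36% of all genes. Only Jag1 passed in every fit with 1 library left out. Because the genes were chosen with earlier results known, the shares of all genes are given as a description. No Notch gene passed in the lower direction by edgeR, DESeq2 or limma, none was lower at an unadjusted p under 0.05 in edgeR, and the shares of all genes passing in that direction were 3.8% and, with the fold minimum, 2.13%. Log2 fold changes were above 0 for 9 of the 10 genes, with a median of 1.06, beside a median of 0.0046 over all tested genes. For 7 of the 10 genes every ablated library lay above every control library on TMM-scaled CPM, against 14.1% of all genes, and for none did every ablated library lie below, against 13.3%. The ordering of the changes is drawn in the plot of fold changes with their errors.

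**Figure D1:**
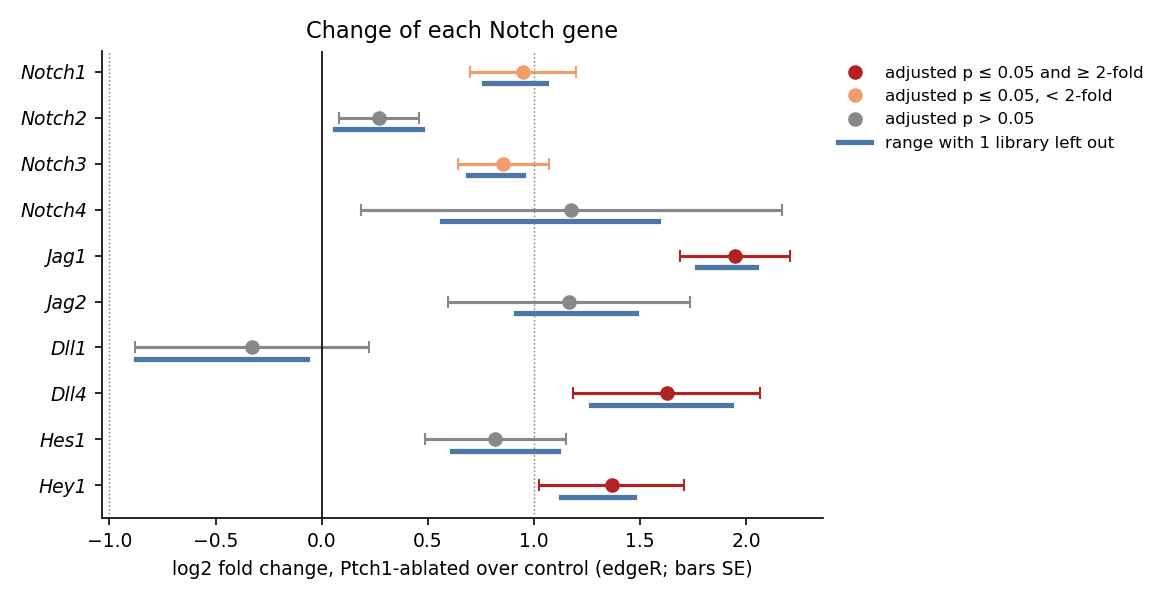
Log2 fold change (Ptch1-ablated over control) of the 10 Notch genes from edgeR's quasi-likelihood test on counts, with error bars giving the SE, point colour marking the adjusted p and fold limits, blue bars the range when 1 library is left out, and dotted lines a 2-fold change. Jag1 lies at 1.95, Dll1 is the gene below 0, and Notch4 has the widest error (SE 0.99).

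Among the receptors, Notch2 was by far the most abundant and Notch1 and Notch3, present at much lower levels, were the ones that rose. Notch1, a receptor used in many tissues including endothelium, had 520, 441 and 348 counts in the control libraries and 1087, 912 and 867 in the ablated libraries, in the order of their replicate numbers, as throughout. Every ablated library was above every control library. Its level was 4.46 ± 0.951 TPM (SD, n = 3) in control and 9.99 ± 1.55 TPM in ablated cells, with a log2 fold change of 0.95 ± 0.25 (SE) and an edgeR adjusted p of 0.0360. Notch3, the receptor best known from vascular smooth muscle and pericytes, had 996, 585 and 1044 counts in control and 2031, 1546 and 1714 in ablated libraries, again without overlap. The level of Notch3 was 10.4 ± 2.29 TPM in control and 21.8 ± 3.07 TPM in ablated cells (log2 fold change 0.86 ± 0.21, edgeR adjusted p = 0.0272). Neither reached 2-fold on TMM-scaled counts, although the ratio of the mean TPM was 2.24 for Notch1 and 2.09 for Notch3. With 1 library left out, Notch1 passed without control replicate 1 (1.06) and not without control replicate 2 (1.03) or control replicate 3 (0.77) or, in turn, ablated replicate 1 (0.83), 2 (0.97) or 3 (1.03), whereas Notch3 did not pass without control replicate 2 (0.69) or ablated replicate 1 (0.73) or 3 (0.90).

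Notch2, the most abundant receptor in every library, had 13894, 12006 and 12707 counts in control and 17848, 21961 and 12554 in ablated libraries. Ablated replicate 3 was within the range of the control counts, so the groups overlapped. Its level of 118 ± 6.35 TPM in control and 166 ± 56.3 TPM in ablated cells gave a log2 fold change of 0.27 ± 0.19 (edgeR adjusted p = 0.478). Notch2 exceeded between 91.7% and 96.3% of all genes in TPM across the 6 libraries. Notch4, a receptor largely of endothelial cells, was scarce, with 27, 29 and 9 counts in control and 54, 95 and 20 in ablated libraries. At this depth the groups overlapped and the change of Notch4 was 1.18 ± 0.99 on the log2 scale (edgeR adjusted p = 0.574).

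The makeup of the receptor pool is set out in the plot of shares. The 4 receptors summed to 133 ± 6.50 TPM in control and 199 ± 58.6 TPM in ablated cells. Notch2 made up 88.6 ± 1.39% of this sum in control and 82.8 ± 4.03% in ablated cells, and the share in each ablated library (81.8%, 87.3% and 79.4%) was below that in each control library (87.8%, 90.2% and 87.8%). Notch1 accounted for 3.33 ± 0.576% of the sum in control and 5.21 ± 1.07% in ablated cells, without overlap. Notch3 accounted for 7.84 ± 1.89% and 11.5 ± 3.15%, with overlap, since ablated replicate 2 (8.07%) lay among the control libraries. With 3 samples against 3, an exact permutation test cannot go below p = 0.1, so these shares are given without a test.

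**Figure D2:**
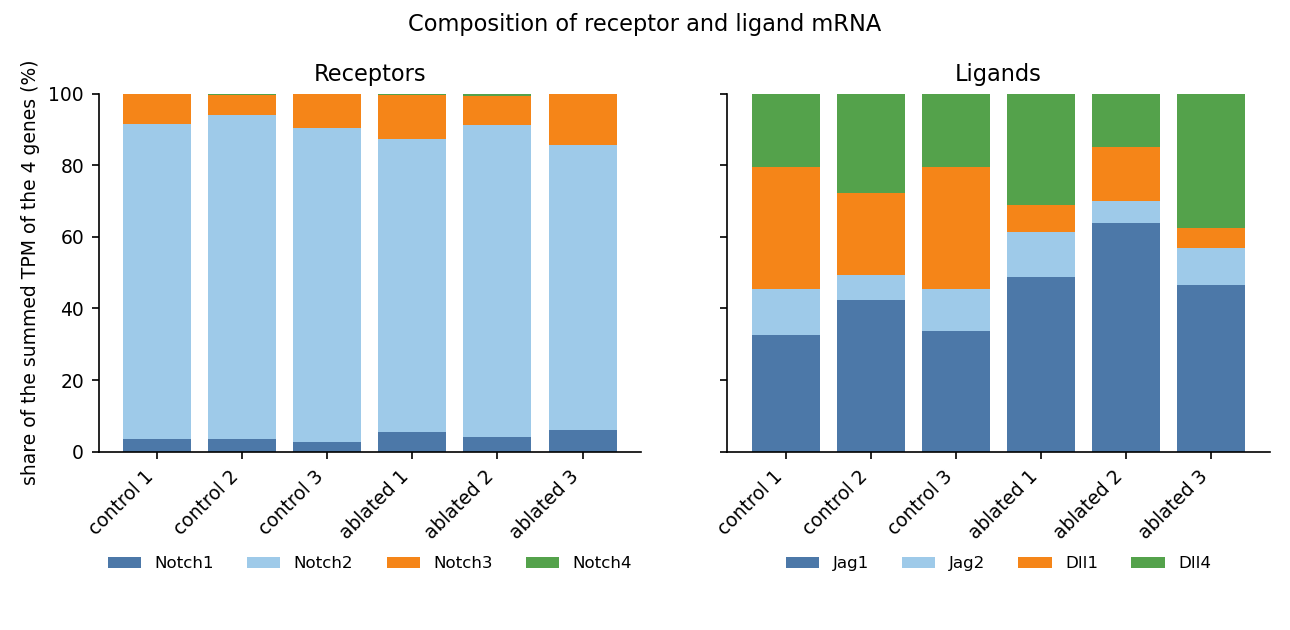
Share of the summed TPM held by each Notch receptor and each canonical ligand (percent, stacked) in each of the 6 libraries. Notch2 fills most of the receptor sum in every library, and Dll1 held 30.4% of the ligand sum in control and 9.47% in ablated cells on average.

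All ligands except Dll1 were measured at higher levels in ablated cells, and Jag1 and Dll4 passed the test. Jag1, a Jagged-type ligand found on many mesenchymal and endothelial cells, had 248, 229 and 204 counts in control and 838, 1215 and 929 in ablated libraries. The lowest ablated library was well above the highest control library. The level of Jag1 was 4.07 ± 0.537 TPM in control and 18.0 ± 4.81 TPM in ablated cells, with a log2 fold change of 1.95 ± 0.26 and an edgeR adjusted p of 0.000481. Jag1 passed the test with a fold above 2 when any library was left out (1.77 to 2.05), and its percentile among all genes rose from between 38.5% and 42.6% in control to between 58.7% and 66.2% in ablated libraries.

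Dll4, the Delta-type ligand of endothelial tip cells and arteries, had 96, 91 and 76 counts in control and 308, 165 and 459 in ablated libraries. The groups did not overlap, but the ablated libraries were widely spread. Its level was 2.58 ± 0.422 TPM in control and 9.16 ± 3.62 TPM in ablated cells (log2 fold change 1.63 ± 0.44, edgeR adjusted p = 0.0412). Dll4 passed without ablated replicate 2 (1.93), in which it was lowest, and did not pass without control replicate 1 (1.67), control replicate 2 (1.73), control replicate 3 (1.49) or ablated replicate 1 (1.62) or 3 (1.27).

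Jag2, the other Jagged-type ligand, had 85, 33 and 63 counts in control and 171, 99 and 183 in ablated libraries, without overlap. Its log2 fold change of 1.17 ± 0.57 did not pass (edgeR adjusted p = 0.281). Dll1, a Delta-type ligand, had 158, 81 and 133 counts in control and 83, 177 and 68 in ablated libraries. The groups overlapped, with ablated replicate 2 the highest of all 6 libraries and the other ablated libraries among the lowest, and the log2 fold change was -0.33 ± 0.55 (edgeR adjusted p = 0.811).

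The summed ligand level went from 11.3 ± 1.52 TPM in control to 33.6 ± 3.38 TPM in ablated cells, with 13.1, 10.6 and 10.3 TPM in the control and 30.0, 36.8 and 33.9 TPM in the ablated libraries. Jag1 held 36.2 ± 5.47% of this sum in control and 53.1 ± 9.45% in ablated cells, and the groups did not overlap. Dll1 held 30.4 ± 6.44% in control and 9.47 ± 5.05% in ablated cells, also without overlap, while the change of its own level did not pass the test. Dll4 held 22.9 ± 4.13% and 27.8 ± 11.6%, and Jag2 held 10.6 ± 3.17% and 9.67 ± 3.32%, both with overlap. Among the ablated libraries, ablated replicate 2 had the highest share of Jag1 (63.9%) and the lowest of Dll4 (14.9%).

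Of the target genes, Hey1 rose and Hes1, although higher in every ablated library, did not pass. Hey1, a HES-related repressor that responds directly to Notch, had 139, 110 and 144 counts in control and 316, 489 and 332 in ablated libraries. Control libraries were close together, between 6.19 and 6.73 TPM, and the ablated libraries lay between 15.0 and 25.7 TPM. The log2 fold change was 1.37 ± 0.34 (edgeR adjusted p = 0.0273). Hey1 passed without control replicate 1 (1.39), and it did not pass without control replicate 2 (1.32) or control replicate 3 (1.38) or, in turn, ablated replicate 1 (1.47), 2 (1.13) or 3 (1.47). Hes1, a repressor that answers to Notch and to several other signals, had 292, 129 and 208 counts in control and 432, 368 and 438 in ablated libraries. The spread lay in the control group (16.5 ± 5.64 TPM), while the ablated libraries were nearly alike (33.4 ± 1.13 TPM). Its log2 fold change of 0.82 ± 0.33 did not pass with edgeR (adjusted p = 0.182), although Hes1 did pass in limma on log2(TPM + 1), with a change of 1.02.

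Without both control replicate 1 and ablated replicate 2, which leaves 2 libraries a group, Notch3 (1.02), Jag1 (1.80) and Dll4 (1.96) passed with at least a 2-fold change, and Notch1 (1.08) and Hey1 (1.15) did not pass. The levels of all 10 genes in each library are drawn in the plot of TPM by library.

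**Figure D3:**
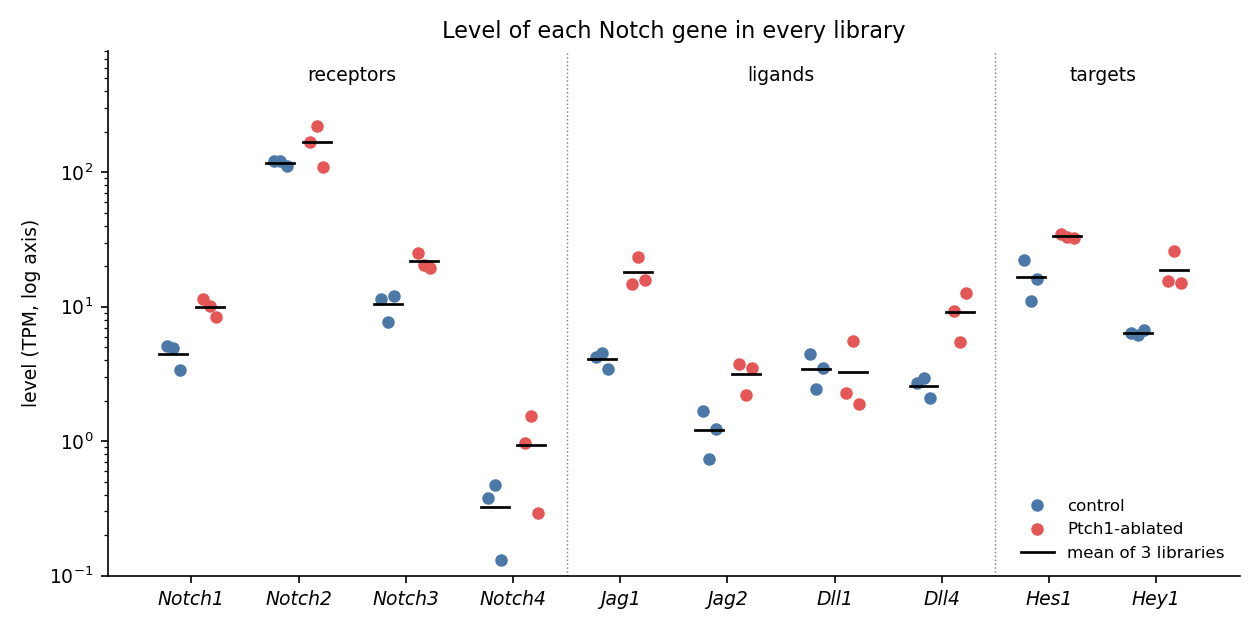
Level (TPM, log10 axis) of each of the 10 Notch genes in the 3 control and 3 Ptch1-ablated libraries, 1 point a library, with a line at the group mean. Notch2 is the highest gene in both groups, and for Jag1, Dll4 and Hey1 the ablated points all lie above the control points.

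By level in TPM, which is scaled to transcript length, the order in control cells was Notch2, Hes1, Notch3, Hey1, Notch1, Jag1, Dll1, Dll4, Jag2 and Notch4. Ranges over the libraries overlapped between Hes1 and Notch3, Notch1 and Jag1, Jag1 and Dll1, and Dll1 and Dll4. Within each control library Hes1 was nevertheless above Notch3 (22.4, 11.1 and 16.1 against 11.5, 7.76 and 11.9 TPM). The other pairs changed order between the control libraries. In ablated cells the order was Notch2, Hes1, Notch3, Hey1, Jag1, Notch1, Dll4, Dll1, Jag2 and Notch4, with overlap between Notch3 and Hey1, Hey1 and Jag1, Notch1 and Dll4, Dll4 and Dll1, and Dll1 and Jag2. Jag1, whose range overlapped that of Notch1 in control cells (3.47 to 4.50 against 3.36 to 5.06 TPM), was above Notch1 in ablated cells (14.7 to 23.5 against 8.35 to 11.4 TPM).

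Markers of vascular cells were higher in the same libraries. The summed level of 12 vascular endothelium markers was 433 to 539 TPM in control and 809 to 868 TPM in ablated libraries, and 7 of the 12 passed the test, all higher, among them Tie1 (2.10 ± 0.35), Vwf (1.85 ± 0.15) and Cdh5 (1.43 ± 0.28). Kdr (-0.40 ± 0.14) and Erg (-0.15 ± 0.14), which also mark endothelium, had log2 fold changes below 0. On TMM-scaled CPM every ablated library lay below every control library for both genes. In TPM, the unit of the sum, the groups overlapped for both. Kdr was at 195 ± 34.7 TPM in control and 171 ± 11.3 TPM in ablated libraries, and Erg at 91.9 ± 4.84 and 96.4 ± 11.2 TPM. Kdr did not pass with edgeR (unadjusted p = 0.0140, adjusted p = 0.112) and passed lower in 2 of 16 alternatives, while Erg passed in none and changed its sign between them (-0.23 to 0.06). The sum of 10 mural cell markers was 479 to 550 TPM in control and 946 to 996 TPM in ablated libraries, and 4 of the 10 passed, all higher, including Rgs5 (0.85 ± 0.12) and Acta2 (1.40 ± 0.16), while Pdgfrb (0.11 ± 0.13) did not. Acta2, which went from 83.4 ± 6.55 to 249 ± 15.7 TPM, is counted by the study as a fibroblast marker in these keratocytes. No marker of either list was at 0 in every library. In bulk samples, a different number of cells of a type, a different amount of RNA per cell and expression by the keratocytes themselves cannot be told apart.

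Other cell types were checked in the same way. Summed Schwann cell markers were 125 to 143 TPM in control and 190 to 200 TPM in ablated libraries. Corneal epithelium markers summed to 50.9 to 89.9 TPM in control and 3.78 to 9.16 TPM in ablated libraries, with 3 of 6 tested markers lower and 1 (Krt12, listed at 0 in every control library) higher. Of 7 tested keratocyte markers 5 passed, all lower, including Kera (-1.59 ± 0.13), whose protein is the keratocan proteoglycan. Leukocyte markers (1429 to 1625 against 1404 to 1797 TPM), melanocyte markers (1.28 to 5.59 against 2.48 to 5.83 TPM) and corneal endothelium markers (123 to 136 against 130 to 173 TPM) overlapped in their sums, although single markers in these lists changed. Of the 6 corneal endothelium markers, Tjp1 passed higher (0.99 ± 0.20, edgeR adjusted p = 0.00945), Alcam passed lower (-1.77 ± 0.17, edgeR adjusted p = 3.6e-05), and Slc4a11 went from 3.30 ± 2.69 to 16.6 ± 3.62 TPM without overlap and did not pass (edgeR adjusted p = 0.0541). Among the leukocyte markers, whose sum was mostly Lyz2, Itgam passed higher (0.79 ± 0.20). The part of these cell types in the changes of the Notch genes was not tested.

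Setting the Notch genes beside these sums, a ratio chosen after the values had been seen, gave the following levels. Per 100 TPM of vascular endothelium markers, Jag1 was at 0.643 to 0.980 TPM in control and 1.69 to 2.90 TPM in ablated libraries. Dll4 was at 0.391 to 0.621 and 0.676 to 1.57 TPM, and Hey1 at 1.18 to 1.47 and 1.79 to 3.18 TPM. On this scale these 3 genes were apart between the groups, whereas the other 7 overlapped, including Notch1 (0.623 to 1.17 and 1.03 to 1.32 TPM). Per 100 TPM of mural markers, Jag1 (0.639 to 0.887 and 1.53 to 2.36 TPM) and Hey1 (1.13 to 1.33 and 1.59 to 2.58 TPM) were apart and the other 8 overlapped, including Dll4 (0.389 to 0.562 and 0.549 to 1.34 TPM) and Notch3.

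These ratios depended on a few abundant markers that did not rise. Kdr and Erg together held 55.1% to 59.8% of the vascular sum in control and 29.6% to 36.0% in ablated libraries, and Pdgfrb held 45.2% to 53.2% and 31.5% to 37.3% of the mural sum. Without Kdr and Erg the vascular sum was 187 to 236 TPM in control and 517 to 611 TPM in ablated libraries, and per 100 TPM of it Jag1 was still higher in every ablated library (1.60 to 2.28 and 2.40 to 4.54 TPM). On that scale Hey1 (2.63 to 3.41 and 2.55 to 4.98 TPM) and Dll4 (0.974 to 1.44 and 1.06 to 2.28 TPM) overlapped, and Notch2 was lower in every ablated library (51.1 to 65.3 and 19.6 to 42.8 TPM). Without Pdgfrb the mural sum was 254 to 263 TPM in control and 625 to 648 TPM in ablated libraries, and per 100 TPM of it Jag1 was again higher without overlap (1.37 to 1.74 and 2.34 to 3.76 TPM). Hey1 overlapped there too (2.39 to 2.65 and 2.32 to 4.12 TPM), and Notch2 and Dll1 were lower in every ablated library. Of the 10 genes, Jag1 was the 1 gene that was higher without overlap on each of these 4 ratios. A gene that rose more than a marker sum is higher on its ratio, and some vascular markers rose about as much as Jag1. The ratio of mean TPM was 4.41 for Jag1, beside 4.93 for Tie1 and 4.17 for Vwf, and lower for the other markers of both lists. Which cells the Jag1 transcripts came from was not tested.

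**Figure D4:**
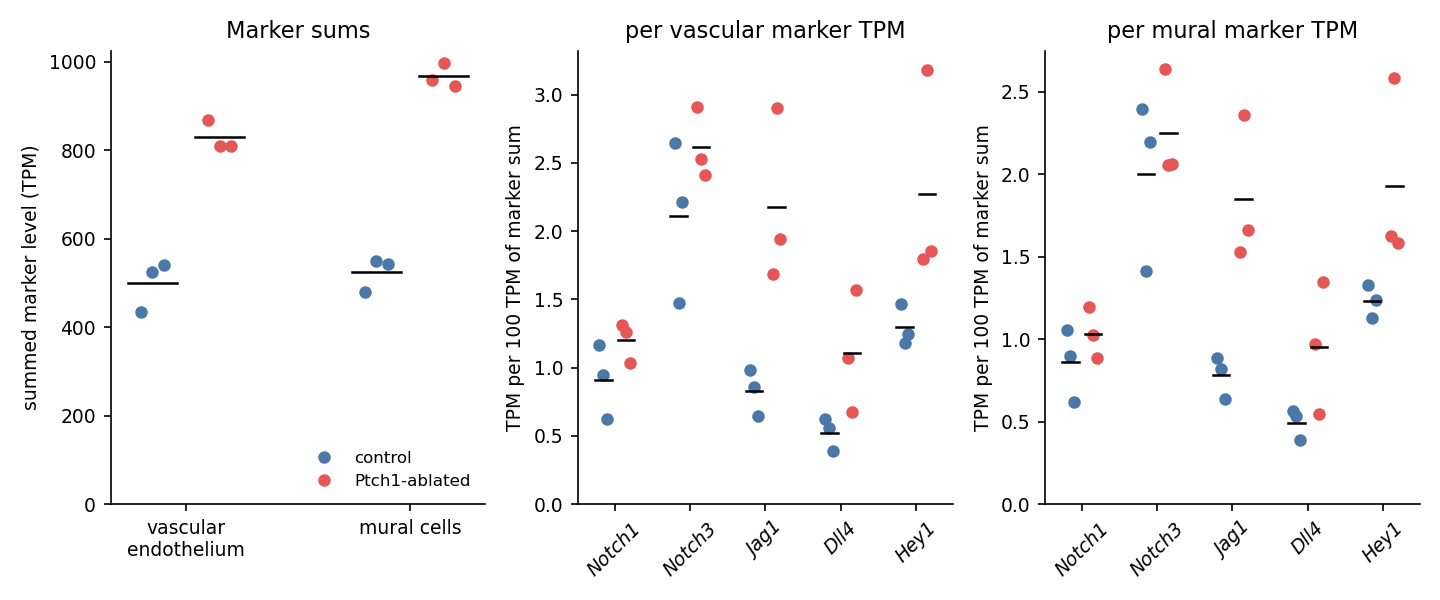
Summed TPM of the vascular endothelium and mural cell markers (left), and TPM of the 5 Notch genes that passed per 100 TPM of the vascular sum (middle) and of the mural sum (right), 1 point a library, with lines at the group means. Both sums are higher in every ablated library, and Jag1 and Hey1 lie apart between the groups on both ratios drawn, Hey1 not when Kdr and Erg or Pdgfrb are left out of the sums.

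The remaining genes of the pathway were followed in 78 further genes, of which 72 were tested. Dll3, Dlk2, Dner, Hes3 and Hes5 did not pass the filter on low counts, and no gene with the symbol Hes2 was found. Of the 72 genes, 7 passed higher and 3 lower, and with the 2-fold minimum 3 and 2 did, beside the shares of all genes given above. The median log2 fold change was 0.13. The plot of the other pathway genes shows them list by list.

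Among 12 further target genes tested, 4 rose, and the median of the list was 0.87, also when Dtx1 was set to its bound. Heyl, a HEY-family repressor known from vascular smooth muscle, had 174, 364 and 484 counts in control and 3008, 2704 and 2600 in ablated libraries. No ablated library came near the control range, and the level of Heyl went from 7.50 ± 3.40 TPM to 62.4 ± 7.47 TPM (log2 fold change 2.85 ± 0.31, edgeR adjusted p = 0.000102). Heyl passed when any library was left out (2.52 to 3.10). Per 100 TPM of vascular endothelium markers Heyl was at 0.842 to 1.87 TPM in control and 6.65 to 8.06 TPM in ablated libraries, and per 100 TPM of mural markers at 0.762 to 1.85 and 5.70 to 7.10 TPM. Heyl was also apart against the sums without Kdr and Erg (1.96 to 4.65 and 9.68 to 12.6 TPM) and without Pdgfrb (1.39 to 3.96 and 8.32 to 10.9 TPM).

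Cdkn1a, the cyclin-dependent kinase inhibitor p21 and a target of p53 as well as of Notch, rose from 171 ± 17.9 to 510 ± 48.7 TPM (1.36 ± 0.15, edgeR adjusted p = 8.11e-05), and passed when any library was left out. Snai1, a transcription factor of mesenchymal cells, went from 150 ± 29.0 to 322 ± 56.0 TPM (0.89 ± 0.18, edgeR adjusted p = 0.00809), and did not pass without control replicate 2 (0.75). Dtx1, a Deltex ubiquitin ligase, had a count of 0 in all 3 control libraries and 22, 28 and 23 counts in the ablated libraries, which is at least 7.15-fold higher when each control library is set to 3 counts. Dtx1 passed with all libraries (edgeR adjusted p = 0.0348) and did not pass when any of the 6 libraries was left out. Hey2, the third HEY-family gene, is named after its values were seen, and with 0, 11 and 0 counts in control and 27, 41 and 50 in ablated libraries it did not pass (3.08 ± 1.55, edgeR adjusted p = 0.295).

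Both tested genes for ligand-like proteins passed in the lower direction. Cntn1, a neural adhesion molecule described as a Notch ligand, went from 57.9 ± 11.4 to 20.4 ± 3.11 TPM (-1.72 ± 0.19, edgeR adjusted p = 0.000109), with 2897, 3073 and 4269 counts in control and 982, 1087 and 1449 in ablated libraries. The groups of Cntn1 did not overlap, and it passed when any library was left out. Dlk1, a Delta-like protein without the domain that activates the receptor, went from 10.7 ± 3.59 to 3.25 ± 0.499 TPM (-2.01 ± 0.51, edgeR adjusted p = 0.0302). Dlk1 passed without control replicate 1 (-2.17) but not without control replicate 2 (-1.81) or control replicate 3 (-2.02) or, in turn, ablated replicate 1 (-2.04), 2 (-1.84) or 3 (-2.14).

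**Figure D5:**
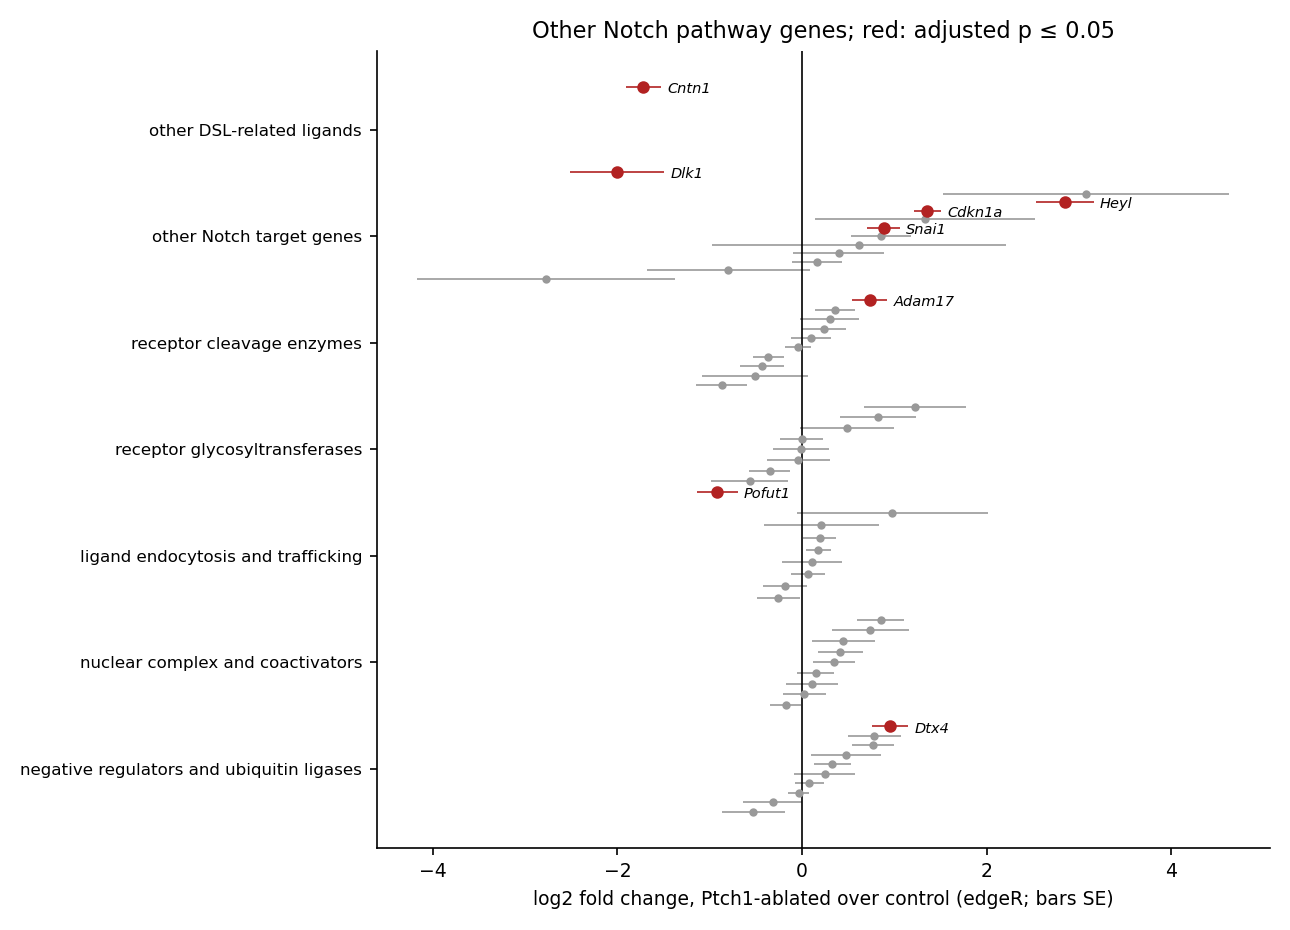
Log2 fold change (Ptch1-ablated over control, edgeR, bars giving the SE) of the other tested Notch pathway genes by list, with genes at an adjusted p of at most 0.05 in red. Dtx1, which had a count of 0 in every control library, and the corepressor list are not drawn. Heyl, Cdkn1a and Snai1 lie to the right among the target genes, and Cntn1 and Dlk1 lie to the left.

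Genes that act on the receptor mostly did not pass. Of 10 cleavage enzymes, 1 rose: Adam17, a sheddase of the ADAM family, with 24.1 ± 4.99 TPM in control and 46.4 ± 2.18 TPM in ablated cells (0.73 ± 0.19, edgeR adjusted p = 0.0362). Adam17 passed without control replicate 2 (0.88) but not without control replicate 1 (0.59) or control replicate 3 (0.74) or, in turn, ablated replicate 1 (0.69), 2 (0.78) or 3 (0.73). The gamma-secretase subunits with the highest levels, Ncstn (-0.04 ± 0.14) and Psenen (-0.43 ± 0.24), did not pass. Of 9 glycosyltransferases that modify the receptor, Pofut1, which adds O-fucose, fell from 38.5 ± 8.84 to 23.8 ± 6.62 TPM (-0.92 ± 0.22, edgeR adjusted p = 0.0232). Pofut1 did not pass without control replicate 1 (-0.71) or ablated replicate 1 (-0.78) or 3 (-0.89). The most abundant others, Poglut1 (0.00 ± 0.23) and Rfng (-0.01 ± 0.30), did not pass.

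Genes for the endocytosis of ligands and for the nuclear complex did not pass in either direction by edgeR, DESeq2 or limma on either TPM scale, with the exception of Maml2, a coactivator of the nuclear list named after its values were seen, which passed in DESeq2. The level of Maml2 was 23.9 ± 4.50 TPM in control and 49.1 ± 23.2 TPM in ablated cells, without overlap (0.85 ± 0.25, edgeR adjusted p = 0.0613). Maml2 passed in 5 of 16 alternatives. At an unadjusted p under 0.05 in edgeR, 0 of the 8 endocytosis genes and 1 of the 9 nuclear genes were higher, and 0 of each were lower. The most abundant were Dnm2 (0.18 ± 0.14) and Rab11a (0.07 ± 0.18) for endocytosis and Snw1 (-0.18 ± 0.17) and Kat2a (0.15 ± 0.20) for the nuclear complex. Rbpj, the DNA-binding partner of cleaved Notch, was added to the named genes after its values were seen, and its level was 31.4 ± 12.2 TPM in control and 36.2 ± 5.41 TPM in ablated cells (0.02 ± 0.23, edgeR adjusted p = 0.977).

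Hdac1, the most abundant of the corepressor genes, which keep Notch targets silent, did not pass (-0.08 ± 0.19). Of 10 negative regulators and ubiquitin ligases, Dtx4, another Deltex ligase, rose from 24.6 ± 5.69 to 55.3 ± 6.74 TPM (0.95 ± 0.20, edgeR adjusted p = 0.00989), and passed when any library was left out. The most abundant of this list, Nedd4 (-0.04 ± 0.12) and Dtx3 (0.08 ± 0.15), did not pass.

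The genes whose log2 CPM followed Jag1 most closely over the 6 libraries were Sh3kbp1 (Pearson r = 0.996, log2 fold change 1.36), Pla2g4a (r = 0.995, 0.53) and Klf2 (r = 0.994, 0.71). The 6 points share the difference between the groups, and the correlations are given as a description.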

How the data were processed

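RNA was measured in 6 samples of sorted mouse corneal keratocytes, 3 control and 3 Ptch1-ablated, with groups and replicate numbers read from the sample titles. Trizol extraction and an Illumina TruSeq library kit are given in the labels, whereas the study's methods describe ribosomal RNA depletion and a BGISEQ platform. Per the submitters' processing notes the tools were Bowtie2 2.2.5 and RSEM 1.2.12 and the build mm9; the annotation release and strandedness were not given in the sources used here, so genes that overlap or share reads are uncertain. The deposited table holds expected counts per gene (RSEM, not normalized, 18.6% of them not whole within 0.001), TPM values that the authors scaled by effective length, and FPKM values that the authors scaled by length and library. The deposited FPKM columns and group averages were not used. Promoter sequences came from RefSeq (GRCm38.p6), matched by symbol.

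Expected counts were rounded. Genes were kept by filterByExpr (13888 of 17606), scaled by TMM and tested with edgeR 4.0.16 in R 4.3.3 (glmQLFit, glmQLFTest, two-sided, no covariates, Benjamini-Hochberg over all genes tested), and each SE is the log2 fold change divided by the square root of F. The limits of 0.05 on the adjusted p and, where used, of 2-fold follow the study. The script was tested on simulated data. Log2 fold changes and TMM-scaled CPM come from counts, and TPM was used for levels, shares and sums. Alternatives were DESeq2 1.42.0, limma 3.58.1 on log2(TPM + 1) and log2(TPM + 0.1), other scalings, other filters, a replicate block and leaving out each library. Leaving out control replicate 1 and ablated replicate 2 together, and leaving markers out of the vascular and mural sums, were chosen after seeing the data.

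The Notch genes and the pathway and marker lists were chosen with earlier results of these data known. All 10 Notch genes are named, and of the other pathway genes every gene that passed and the 2 with the highest mean TPM in each list, together with the 3 genes most correlated with the Notch gene of lowest p. Results for some genes of the pathway and marker lists are not reported here, although the counts over all pathway genes include them.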

Additional observations from a re-analysis of the deposited data

How the results depend on the processing

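All 10 genes kept the sign of their log2 fold change under every alternative in which they were tested. Jag1 passed in all 16 alternatives. The 3 genes that passed with a fold of at least 2 were the same with DESeq2, RLE and upper quartile scaling, no filter on low counts and a mean count of at least 50, under which Notch4 was not tested. Their number was 5 with library totals only (Notch1 and Notch3 added), 5 in limma with a pseudocount of 1 TPM and likewise 5 with 0.1 TPM (Notch3 and Hes1 added; Notch1 did not pass), 5 with no fold minimum, 1 with the replicate block and between 1 and 3 when 1 library was left out. Medians over all genes, 0.0046 on the log2 scale with TMM, were 0.17 with library totals only and 0.19 and 0.22 in the limma fits. Of the other pathway genes, 3 passed higher with the fold minimum, against 6 with library totals only, 5 in limma on log2(TPM + 1) and 7 with no fold minimum; 2 passed lower, against 1 with the replicate block and 1 to 2 when 1 library was left out (1 without control replicate 3 or ablated replicate 3). Over the whole table, 467 genes passed higher with the fold minimum, against 768 in limma on log2(TPM + 1), and 296 lower, against 528 with no fold minimum.

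Replicate numbers gave no visible pairing of the samples: deviations from the group means of same-numbered libraries correlated at -0.046, -0.049 and 0.039, and not every library correlated best with its own number. Deviations from a mean of 3 libraries are bound to balance within each group, so these correlations cannot exclude a pairing. With the replicate block 3 of the 10 genes passed (Notch1, Notch3 and Jag1) in place of 5. Counts were lowest for Notch4, with 9 to 95 a library, and Jag2, with 33 to 183.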
